A study of Homo sapiens with 6 samples.

Results

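The CDK inhibitors are the proteins that bind and block cyclin-dependent kinases, and 7 genes were taken as members: CDKN1A, CDKN1B, CDKN1C, CDKN2A, CDKN2B, CDKN2C and CDKN2D. Members were found by gene symbol in the platform annotation of the arrays, which gave 14 probe sets for 6 of the 7 genes, out of 54675 probe sets and 19775 named genes on the array. CDKN2C carried 0 annotated probe sets, and its expression was not analysed here. The study used H1299, an established human cell line from a non-small-cell lung carcinoma, and depleted RBP2, an older name of KDM5A, with lentiviral short hairpin RNAs (shRNAs). The 3 groups were cells with the shRNA RBP2 KD1, cells with the shRNA RBP2 KD2 and cells with a scramble shRNA, each with 2 arrays, and all were the same line collected 72 hours after infection. Each shRNA group is 1 hairpin in 1 cell line, and both shRNAs are compared with the same 2 scramble arrays. With 2 arrays a group, values can fail to overlap between groups without a change. Where groups are said not to overlap, the share of all genes that did so was not counted. Nothing in the labels says whether the arrays of a group came from separate cultures, and p-values therefore reflect the spread among these samples alone, which can be technical. Values are log2 expression values per probe set, and bulk RNA cannot tell fewer cells with a transcript apart from less of it in each cell.

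CDK inhibitors fall into 2 families that slow the cell cycle at different points. The CIP/KIP proteins p21 (CDKN1A), p27 (CDKN1B) and p57 (CDKN1C) bind cyclin-CDK complexes broadly, above all those of CDK2. The INK4 proteins p16 (CDKN2A), p15 (CDKN2B), p18 (CDKN2C) and p19 (CDKN2D) bind the kinases CDK4 and CDK6 and keep D-type cyclins from activating them, so that the retinoblastoma protein stays bound to E2F factors. CDKN2A also yields ARF, a protein in another reading frame, from a separate start. RBP2 was first found as a partner of the retinoblastoma protein and removes methyl groups from lysine 4 of histone H3, a mark of active promoters. In other cell types it has been reported to hold down CDK inhibitor genes.

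RefSeq promoters on GRCh38.p14 were at hand for 6 of the 7 genes, all but CDKN1C, whose promoter was not searched. The bases just before the start are shown for the 4 inhibitors that differed from scramble with at least 1 shRNA. The bases shown for CDKN1A lie at chr6:36678464-36678713 on the plus strand and those for CDKN1B at chr12:12717118-12717367 on the plus strand. Those for CDKN2D lie at chr19:10568980-10569229 on the minus strand. The bases before the first and second CDKN2A start lie at chr9:21974858-21975107 and chr9:21995325-21995574, both on the minus strand. These starts are numbered by chromosome position, so in the direction of the gene start 2 lies upstream of start 1. Sequences run 5′ to 3′ in the direction of the gene, and capitals mark CCGCCC or its complement GGGCGG, searched on both strands. These letters have been reported for the DNA-binding ARID domain of KDM5A and are the same as those of the GC box of SP1.
CDKN1A: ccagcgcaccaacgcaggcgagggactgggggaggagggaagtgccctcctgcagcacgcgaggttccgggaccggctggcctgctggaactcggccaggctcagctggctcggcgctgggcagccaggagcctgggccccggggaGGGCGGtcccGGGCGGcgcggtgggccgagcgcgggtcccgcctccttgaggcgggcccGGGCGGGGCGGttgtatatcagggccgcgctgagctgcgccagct
CDKN1B: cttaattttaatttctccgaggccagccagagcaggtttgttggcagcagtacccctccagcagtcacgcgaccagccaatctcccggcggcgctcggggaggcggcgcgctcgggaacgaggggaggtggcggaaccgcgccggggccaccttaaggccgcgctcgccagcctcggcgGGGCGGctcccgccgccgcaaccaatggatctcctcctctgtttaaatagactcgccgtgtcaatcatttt
CDKN2D: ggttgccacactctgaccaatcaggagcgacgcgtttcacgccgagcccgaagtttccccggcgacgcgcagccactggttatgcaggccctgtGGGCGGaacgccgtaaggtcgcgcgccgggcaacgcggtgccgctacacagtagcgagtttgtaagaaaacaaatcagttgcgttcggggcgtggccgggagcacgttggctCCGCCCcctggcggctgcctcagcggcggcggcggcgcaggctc
CDKN2A start 1: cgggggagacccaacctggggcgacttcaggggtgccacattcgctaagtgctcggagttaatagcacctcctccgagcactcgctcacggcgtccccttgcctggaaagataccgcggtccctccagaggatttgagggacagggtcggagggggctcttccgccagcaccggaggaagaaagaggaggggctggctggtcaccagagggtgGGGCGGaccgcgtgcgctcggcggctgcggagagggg
CDKN2A start 2: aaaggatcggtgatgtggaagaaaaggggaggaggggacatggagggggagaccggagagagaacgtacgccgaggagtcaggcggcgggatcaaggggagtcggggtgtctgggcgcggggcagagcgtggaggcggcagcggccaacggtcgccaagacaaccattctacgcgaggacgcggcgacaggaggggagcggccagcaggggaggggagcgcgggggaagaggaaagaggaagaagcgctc
The motif stood 4 times before CDKN1A, where the last 2 matches share a base, 2 times before CDKN2D, 1 time before CDKN1B and 1 time before the first CDKN2A start. It was not found in these bases of the second CDKN2A start, and CDKN2B, not shown, held 2 matches. Of 35116 promoters of the same length, 42.6% held it, so a match is common and is a description of the letters, not a binding site. Of the other motifs searched on both strands, CCAAT (32.0% of promoters) stood 2 times before CDKN1B and 1 time before CDKN2D. CACGTG (6.3% of promoters), TATAAA (10.7%), TGACGTCA (1.6%) and TTTGGCGC (0.5%) had 0 matches before CDKN1A, CDKN1B, CDKN2A, CDKN2B and CDKN2D. CDKN2C, whose expression was not measured, held CACGTG 1 time before its start 1 and 1 time before its start 3. It held CCGCCC or its complement 5 times before start 2 and 1 time before start 3, and CCAAT 1 time before start 3. Which CDKN2A transcript a probe set reads was not tested.

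KDM5A was lower in both knockdown groups. It stood at 7.42 and 7.27 with RBP2 KD1 and at 6.66 and 6.72 with RBP2 KD2, against 9.35 and 9.42 with scramble. The groups did not overlap, and the log2 fold change was -2.04 ± 0.11 with RBP2 KD1 (SE, limma adjusted p = 0.00475) and -2.69 ± 0.11 with RBP2 KD2 (adjusted p = 0.00237). The brightest probe set was 1.57-fold higher with RBP2 KD1 than with RBP2 KD2 (adjusted p = 0.0101), but the other 3 tested KDM5A probe sets were not called in this contrast. They were 1.23-fold (adjusted p = 0.167), 1.30-fold (adjusted p = 0.233) and 1.32-fold (adjusted p = 0.104) higher with RBP2 KD1 in the fit over all probe sets. The direction was thus the same in every tested probe set, and the call of a difference in depth of knockdown rests on 1. All 4 markers fixed for H1299, VIM, CDH2, AXL and ZEB1, were expressed, and their mean per array was 11.8 to 12.0 with RBP2 KD1, 11.8 with RBP2 KD2 and 11.9 to 12.0 with scramble. Of the markers of lung epithelium, fibroblasts, leukocytes and endothelium, 1 of 6, 1 of 6, 1 of 4 and 0 of 4 reached a mean of 4 on the log2 scale, and CDH1 and COL3A1 stood at the lowest value of the series.

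All 6 measured inhibitors had a probe set with a mean log2 value of at least 4 and entered the test with 10526 genes. Genes with a Benjamini-Hochberg adjusted p below 0.05 over all of these were called. With RBP2 KD1, CDKN1A and CDKN2D fell and CDKN1B rose: 2 of 6 members were called lower, where 7.9% of all genes were, and 1 of 6 higher, where 3.62% were. With RBP2 KD2, CDKN2A fell and no other member was called. That is 1 of 6 lower, where 14.4% of all genes were, and 0 of 6 higher, where 16.7% were, with 1 of the 6 at an unadjusted limma p under 0.05. In the mean of both shRNAs against scramble, CDKN1A and CDKN2D were called lower (6.92% of all genes) and 0 of 6 higher (5.61% of all genes), while 3 of 6 had an unadjusted p under 0.05.

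The contrast between the hairpins held the most calls. Between RBP2 KD1 and RBP2 KD2, 5 of the 6 inhibitors differed, against 41.1% of all genes. CDKN1B and CDKN2A were higher with RBP2 KD1, where 17.8% of all genes were called higher, and CDKN1A, CDKN2B and CDKN2D were lower, where 23.3% were. CDKN1C was the exception. No inhibitor was called against scramble with both shRNAs in this fit, which leaves the replicate number out. The median log2 fold change of the 6 members was -0.62 with RBP2 KD1, -0.32 with RBP2 KD2 and -0.47 in the mean of both, and the median of all tested genes was 0.00, 0.08 and 0.02.

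The sample titles number the replicates but state no pairing between groups. Same-numbered arrays deviated together in these data, but the main fit, which gave the calls above, did not treat them as pairs. A fit with the replicate number as a block called more genes and more members. With the block, 4 of 6 members were called with RBP2 KD1 (29.6% of all genes), 3 with RBP2 KD2 (50.6%), 3 in the mean of both (34.9%) and all 6 between the shRNAs (57.7%). The members added were CDKN2B with RBP2 KD1, CDKN1A and CDKN1C with RBP2 KD2, CDKN1C in the mean of both and CDKN1C between the shRNAs. Under this fit CDKN1A was called lower with each shRNA. The share of all genes called grew with the members' count, so the count is read against it.

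**Figure D1:**
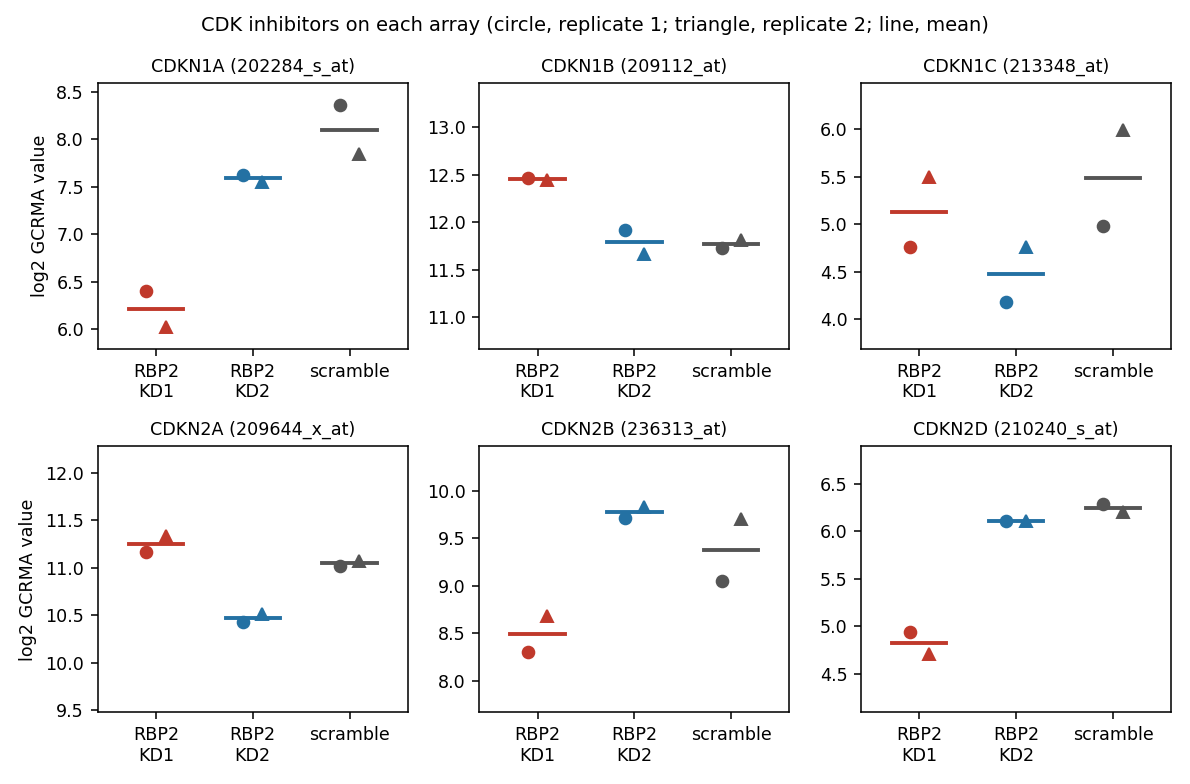
Log2 GCRMA value of the main probe set of each measured CDK inhibitor on each of the 6 arrays, in RBP2 KD1, RBP2 KD2 and scramble cells; circles are replicate 1, triangles replicate 2 and lines the group means. Each panel spans the same number of log2 units around its own values, so distances compare between panels but heights do not. CDKN1A and CDKN2D stand lowest with RBP2 KD1, CDKN1B highest with RBP2 KD1 and CDKN2A lowest with RBP2 KD2.

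CDKN1A encodes p21, the CIP/KIP inhibitor best known for arresting cells after DNA damage, and was read by 1 probe set (202284_s_at). It stood at 6.40 and 6.02 with RBP2 KD1 and at 7.63 and 7.55 with RBP2 KD2, against 8.36 and 7.84 with scramble. The 3 groups did not overlap, with RBP2 KD1 lowest and RBP2 KD2 between it and scramble. Group means were 6.21 ± 0.27, 7.59 ± 0.05 and 8.10 ± 0.36 in that order (SD, n = 2 each). CDKN1A fell 3.69-fold with RBP2 KD1, a log2 fold change of -1.88 ± 0.22 (SE, adjusted p = 0.0146), and 1.11% of tested genes changed at least as much in that comparison. With RBP2 KD2 the log2 fold change was -0.51, with a 95% interval of -1.08 to 0.06 (adjusted p = 0.146), and with the replicate block the adjusted p was 0.0324. In the mean of both shRNAs CDKN1A was 2.29-fold lower (adjusted p = 0.0262), and RBP2 KD1 lay 2.59-fold below RBP2 KD2 (adjusted p = 0.00859). The call with RBP2 KD1 was lost when any 1 of the 6 arrays was left out, with log2 fold changes of -2.14 to -1.63 and adjusted p of 0.0618 to 0.0827, and the call in the mean of both was lost likewise (adjusted p = 0.0541 to 0.138). The call between the shRNAs was lost without replicate 1 or 2 of RBP2 KD2 (adjusted p = 0.0686 and 0.0573), and all 3 calls were lost with no filter on dim probe sets (adjusted p = 0.0802, 0.121 and 0.0609).

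CDKN1B encodes p27, which binds CDK2 complexes and builds up in cells that leave the cycle. Its 1 probe set (209112_at) stood at 12.46 and 12.44 with RBP2 KD1 and at 11.91 and 11.67 with RBP2 KD2, against 11.72 and 11.81 with scramble. Both RBP2 KD1 arrays were above the other 4, and the RBP2 KD2 arrays lay on either side of the scramble arrays. Group means were 12.45 ± 0.01 with RBP2 KD1, 11.79 ± 0.18 with RBP2 KD2 and 11.77 ± 0.06 with scramble (SD, n = 2 each). CDKN1B rose 1.61-fold with RBP2 KD1, a log2 fold change of 0.69 ± 0.13 (SE, adjusted p = 0.0355), and 15.8% of tested genes changed at least as much. With RBP2 KD2 it was 0.02, with a 95% interval of -0.30 to 0.35, and the mean of both shRNAs gave 0.36 (adjusted p = 0.0960). RBP2 KD1 exceeded RBP2 KD2 by 1.58-fold (adjusted p = 0.0138). The rise with RBP2 KD1 was lost when any 1 array was left out (log2 fold change 0.64 to 0.73, adjusted p = 0.0697 to 0.157) and with no filter (adjusted p = 0.0956). The call between the shRNAs was lost without RBP2 KD1 replicate 1 (adjusted p = 0.0600), RBP2 KD1 replicate 2 (0.0524) or RBP2 KD2 replicate 2 (0.0583).

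CDKN1C encodes p57, an imprinted inhibitor expressed from the maternal allele and known for its part in development. Of its 5 probe sets 1 had a mean of at least 4, and this one (213348_at) stood at 4.76 and 5.50 with RBP2 KD1 and at 4.18 and 4.76 with RBP2 KD2, against 4.99 and 5.99 with scramble. The RBP2 KD2 arrays lay below scramble, and the RBP2 KD1 arrays overlapped both. In each group replicate 2 was the higher array, by 0.73 with RBP2 KD1, 0.58 with RBP2 KD2 and 1.01 with scramble. CDKN1C was not called in any of the 4 comparisons: the log2 fold change was -0.36 with RBP2 KD1 (95% interval -1.49 to 0.77) and -1.02 with RBP2 KD2 (95% interval -2.15 to 0.11, adjusted p = 0.143). With the replicate block, which takes out the shared step between replicates, the adjusted p was 0.0048 with RBP2 KD2, 0.0153 in the mean of both and 0.0123 between the shRNAs. The other 4 probe sets were dim: 213182_x_at, 219534_x_at and 216894_x_at had values of 2.54 to 3.02 on the knockdown arrays, against 3.00 to 3.90 on the scramble arrays. The fifth, 219533_at, stood at 2.24, the lowest value of the series, on all 6 arrays.

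CDKN2A encodes the INK4 inhibitor p16 and ARF, and was read by 3 probe sets. The brightest (209644_x_at) stood at 11.17 and 11.33 with RBP2 KD1 and at 10.43 and 10.51 with RBP2 KD2, against 11.02 and 11.08 with scramble. The groups did not overlap, and the shRNAs lay on opposite sides of scramble, RBP2 KD1 above and RBP2 KD2 below. Group means were 11.25 ± 0.12 with RBP2 KD1, 10.47 ± 0.06 with RBP2 KD2 and 11.05 ± 0.04 with scramble (SD, n = 2 each). CDKN2A fell 1.49-fold with RBP2 KD2, a log2 fold change of -0.58 ± 0.12 (SE, adjusted p = 0.0206), while RBP2 KD1 gave 0.20 (95% interval -0.09 to 0.50, adjusted p = 0.319). In that comparison 35.2% of tested genes changed at least as much as CDKN2A with RBP2 KD2. Between the shRNAs it was 1.72-fold higher with RBP2 KD1 (adjusted p = 0.00649), and this call held with each of the 6 arrays left out (adjusted p = 0.0193 to 0.0491). The fall with RBP2 KD2 was lost without RBP2 KD2 replicate 1 (adjusted p = 0.105) or 2 (0.0773) and without scramble replicate 1 (0.0808) or 2 (0.0886).

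A second CDKN2A probe set gave the same order of groups. The probe set 207039_at stood at 9.62 and 9.64 with RBP2 KD1 and at 8.31 and 8.58 with RBP2 KD2, against 9.26 and 9.52 with scramble. RBP2 KD1 was again highest and RBP2 KD2 lowest, with no overlap. Fitted over all probe sets, it was 1.93-fold lower with RBP2 KD2 (log2 fold change -0.95, adjusted p = 0.0155) and 1.18 log2 units higher with RBP2 KD1 than with RBP2 KD2 (adjusted p = 0.0058). The third, 211156_at, stood at 2.25 on all 6 arrays, so 2 of the 3 probe sets carried a measured difference.

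CDKN2B encodes p15, the INK4 inhibitor known for its induction by transforming growth factor beta, and its gene lies beside CDKN2A. Its brighter probe set (236313_at) stood at 8.30 and 8.68 with RBP2 KD1 and at 9.71 and 9.83 with RBP2 KD2, against 9.05 and 9.71 with scramble. RBP2 KD1 was lowest, and RBP2 KD2 lay above scramble by a margin smaller than the step between the scramble replicates. Group means were 8.49 ± 0.27 with RBP2 KD1, 9.77 ± 0.09 with RBP2 KD2 and 9.38 ± 0.46 with scramble (SD, n = 2 each). CDKN2B was not called against scramble with RBP2 KD1 (log2 fold change -0.89, 95% interval -1.55 to -0.22, adjusted p = 0.0953) or with RBP2 KD2 (0.39, 95% interval -0.27 to 1.06, adjusted p = 0.300). With the replicate block the adjusted p with RBP2 KD1 was 0.0186. Between the shRNAs it was 2.43-fold lower with RBP2 KD1, a difference of -1.28 ± 0.26 (SE, adjusted p = 0.0160). CDKN2A and CDKN2B, neighbours on chromosome 9, were thus called in opposite directions in this contrast. The CDKN2B call was lost without RBP2 KD1 replicate 1 (adjusted p = 0.0788) or RBP2 KD2 replicate 1 (0.0875) or 2 (0.0973), and with no filter (0.0948). The second probe set (207530_s_at) stood at 3.93 on the RBP2 KD1 and scramble arrays and at 4.12 and 4.45 with RBP2 KD2, so that the RBP2 KD2 arrays were the 2 above its floor.

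CDKN2D encodes p19, an INK4 inhibitor of CDK4 and CDK6. Its brighter probe set (210240_s_at) stood at 4.93 and 4.70 with RBP2 KD1 and at 6.11 on both RBP2 KD2 arrays, against 6.28 and 6.20 with scramble. The 3 groups did not overlap, in the same order as for CDKN1A: RBP2 KD1 lowest, then RBP2 KD2, then scramble. RBP2 KD2 lay only just below scramble, at 6.11 against 6.20 on the nearer scramble array. The 2 RBP2 KD2 values were identical as deposited, so their SD was 0 and the test rests on the spread of the other groups and on the moderated variance. CDKN2D fell 2.68-fold with RBP2 KD1, a log2 fold change of -1.42 ± 0.12 (SE, adjusted p = 0.00765), and 2.77% of tested genes changed at least as much. With RBP2 KD2 it was -0.13, with a 95% interval of -0.45 to 0.19 (adjusted p = 0.460), and the mean of both was 1.71-fold lower (adjusted p = 0.0211). Between the shRNAs CDKN2D was 2.45-fold lower with RBP2 KD1 (adjusted p = 0.00229), and this call held with each array left out (adjusted p = 0.0104 to 0.0276). The call with RBP2 KD1 was lost without scramble replicate 1 (adjusted p = 0.0713) or 2 (0.0707). The call in the mean of both held without RBP2 KD1 replicate 1 (adjusted p = 0.0483) and was lost without each of the other 5 arrays (up to 0.135) and with no filter (0.0631). The second probe set, 213586_at, stood at 2.24 on all 6 arrays.

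**Figure D2:**
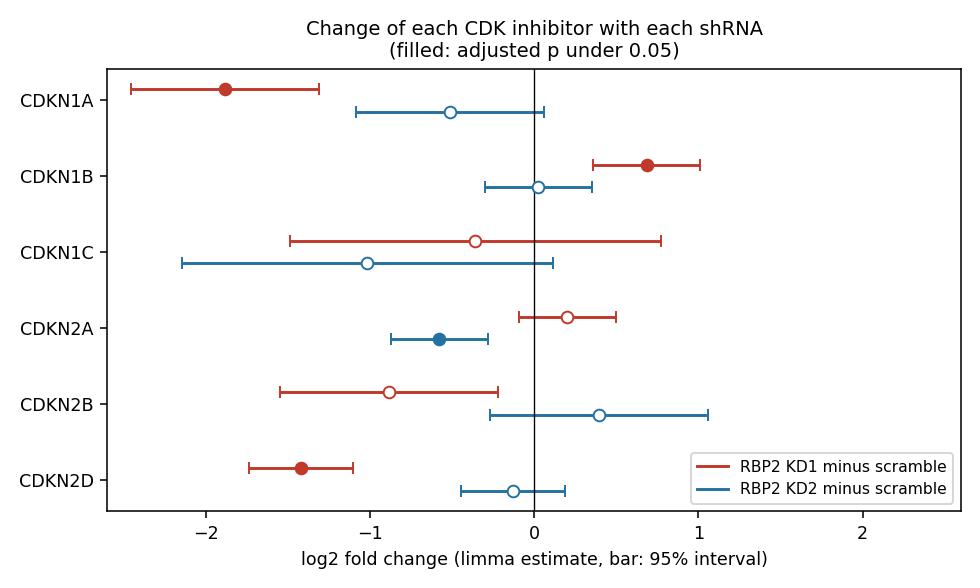
Log2 fold change of each measured CDK inhibitor with RBP2 KD1 and with RBP2 KD2 against the same 2 scramble arrays; bars are 95% intervals of the limma estimate and filled points have an adjusted p under 0.05. CDKN1A, CDKN1B and CDKN2D are filled with RBP2 KD1 and CDKN2A with RBP2 KD2, and no gene is filled with both. The fit shown is the one without the replicate block.

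**Figure D3:**
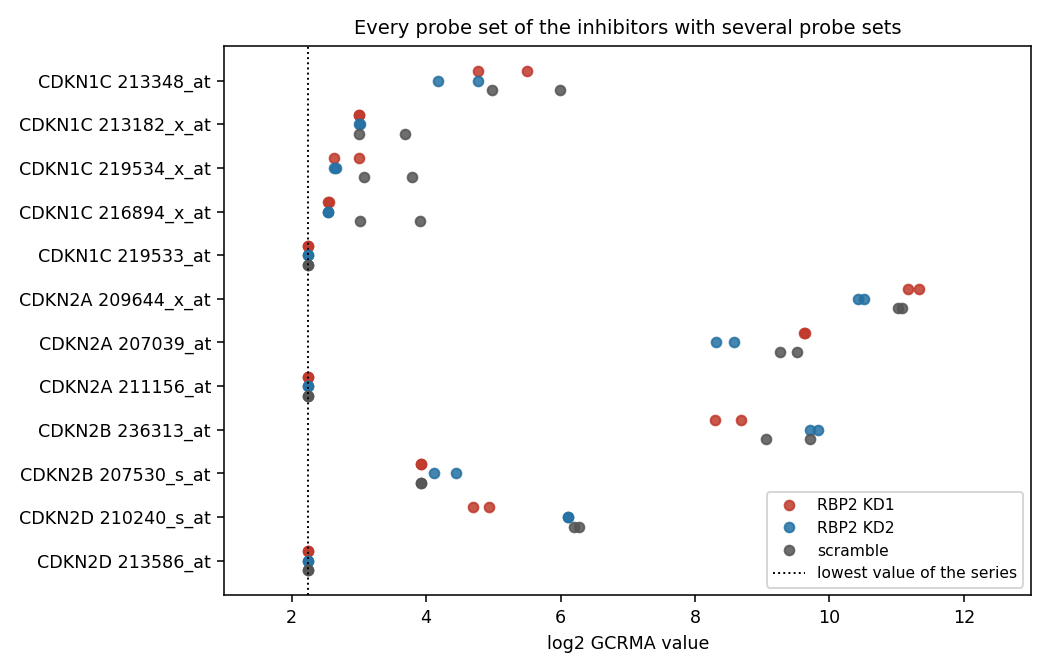
Log2 GCRMA value on each array of every probe set of the inhibitors with more than 1 probe set; points above one another are RBP2 KD1, RBP2 KD2 and scramble arrays, and the dotted line is the lowest value of the series, 2.24. The 2 bright CDKN2A probe sets show the same order of groups, and 219533_at and 213586_at sit on the dotted line on all 6 arrays.

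For each inhibitor called in at least 1 comparison, the genes with the most similar profile were taken as those with the smallest root mean square difference over the 6 arrays, after each gene was centred on its own mean. Nearest to CDKN1A were H2AZ2, a histone H2A variant, at 0.0859 log2 units, TMEM19 at 0.110 and LOC646903 at 0.156. H2AZ2 stood 1.76 log2 units below scramble with RBP2 KD1 and 0.36 below with RBP2 KD2. Nearest to CDKN2D were SINHCAF, a subunit of the SIN3-HDAC complex, at 0.0322, LINC03011 at 0.0775 and NKAPD1 at 0.0796. Nearest to CDKN1B were SMCR8 at 0.0818, TSC22D4 at 0.0844 and ZNF528 at 0.0844. Nearest to CDKN2A were GARS1-DT at 0.0231, DNM1L, a GTPase of mitochondrial fission, at 0.0529 and DYRK2 at 0.0597, and nearest to CDKN2B were ZMIZ1 at 0.0876, MAGED2 at 0.0912 and LIPJ at 0.0941. No member was among the 3 nearest genes of another.

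The kinases and cyclins that the inhibitors bind were all measured, and their calls differed by hairpin. With RBP2 KD2, 8 of 11 genes were called lower, where 14.4% of all tested genes were, and 2 higher, where 16.7% were. With RBP2 KD1, 2 of 11 were called lower (7.9% of all genes) and 1 higher (3.62%). Their median log2 fold change was -2.22 with RBP2 KD2 and 0.08 with RBP2 KD1, and both comparisons share the scramble arrays. CDK2, the main kinase bound by p21 and p27, stood at 10.56 and 9.77 with RBP2 KD1 and at 5.14 and 5.81 with RBP2 KD2, against 10.37 and 9.70 with scramble. The RBP2 KD2 arrays were far below the other 4, and CDK2 was 23.6-fold lower with RBP2 KD2 than with scramble (adjusted p = 0.00385). CDK4, the kinase bound by INK4 proteins, was 4.67-fold lower with RBP2 KD2 (adjusted p = 0.00603), and with RBP2 KD1 its log2 fold change was 0.19 (adjusted p = 0.685). In the mean of both shRNAs 4 of the 11 were called lower (6.92% of all genes) and 0 higher (5.61%): CDK2 by a log2 fold change of -2.21, CDK1, the mitotic kinase, by -1.66, CCND2 by -1.36 and CDK4 by -1.02.

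CDK6 and CCND1, the other main target kinase of the INK4 proteins and its cyclin D1 partner, moved in opposite directions with the hairpins. CDK6 stood at 13.03 and 12.87 with RBP2 KD1 and at 10.34 and 10.32 with RBP2 KD2, against 12.20 and 11.98 with scramble. It was called 1.82-fold higher with RBP2 KD1 (adjusted p = 0.0236) and 3.38-fold lower with RBP2 KD2 (adjusted p = 0.00325). CCND1 stood at 10.53 and 10.68 with RBP2 KD1 and at 12.67 and 12.58 with RBP2 KD2, against 11.29 and 11.43 with scramble. It was called 1.69-fold lower with RBP2 KD1 (adjusted p = 0.0256) and 2.41-fold higher with RBP2 KD2 (adjusted p = 0.00426). CCNE1, the cyclin E1 partner of CDK2, was called 5.96-fold lower with RBP2 KD1 (adjusted p = 0.0175), and CCNE2, cyclin E2, 10.3-fold lower with RBP2 KD2 (adjusted p = 0.0223). Between the shRNAs 7 of the 11 were called higher (17.8% of all genes) and 2 lower (23.3%) with RBP2 KD1, with the largest difference for CDK2 at 4.69 log2 units, followed by CCNE2 at 3.30.

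**Figure D4:**
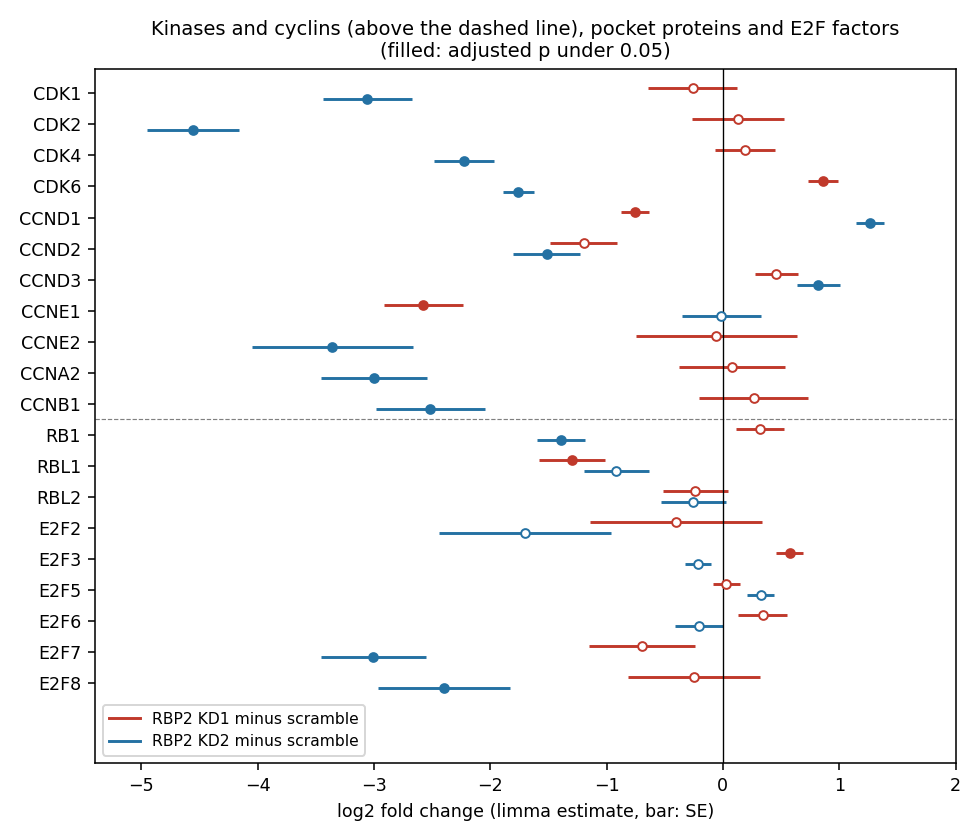
Log2 fold change of the 11 kinases and cyclins and the 9 tested pocket proteins and E2F factors with RBP2 KD1 and with RBP2 KD2 against scramble; bars are the SE of the limma estimate and filled points have an adjusted p under 0.05. CDK1, CDK2, CDK4, CCNE2, CCNA2 and CCNB1 lie near 0 with RBP2 KD1 and are filled far to the left with RBP2 KD2.

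Downstream of the kinases, 9 of 11 pocket proteins and E2F factors were tested, since E2F1 and E2F4 were below the filter. With RBP2 KD2, RB1, the retinoblastoma gene, fell 2.62-fold (adjusted p = 0.00997), E2F7 8.03-fold (adjusted p = 0.0105) and E2F8 5.27-fold (adjusted p = 0.0320), and 0 of 9 were called higher. The 3 lower calls of 9 stand beside 14.4% of all genes. With RBP2 KD1, RBL1, which encodes the pocket protein p107, fell 2.46-fold (adjusted p = 0.0489) and E2F3 rose 1.49-fold (adjusted p = 0.0403), 1 call of 9 in each direction beside 7.9% of all genes lower and 3.62% higher. In the mean of both shRNAs, E2F7 and RBL1 were called lower, by log2 fold changes of -1.85 and -1.11 (2 of 9, against 6.92% of all genes). Between the shRNAs 4 of 9 were called higher with RBP2 KD1 (17.8% of all genes) and 0 lower (23.3%).

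Of 22 listed factors known to act on CDKN1A transcription, 17 were tested. In the mean of both shRNAs 0 of 17 were called lower, where 6.92% of all genes were, and 0 higher, where 5.61% were. The largest values there were -0.72 for MYC, a repressor of CDKN1A (adjusted p = 0.236), and -0.57 for SP1, which binds GC boxes (adjusted p = 0.232). With RBP2 KD1, where CDKN1A fell, the 1 call among the 17 was HDAC1, a histone deacetylase, which was 1.92-fold lower (adjusted p = 0.0321), and 7.9% of all genes were called lower. With RBP2 KD2, SMAD2 and SMAD3 were called higher, by 0.74 and 0.49 log2 units, and STAT3 and SP3 lower, with log2 fold changes of -1.07 and -0.67. These are 2 of 17 in each direction, beside 16.7% of all genes higher and 14.4% lower. Between the shRNAs 8 of 17 were called, beside 41.1% of all genes: 6 were higher and 2 lower with RBP2 KD1, led by STAT3 at 1.50 and SP1 at 1.10 log2 units.

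Of 22 listed regulators and neighbours of the CDKN2A and CDKN2B locus, 12 were tested. Between the shRNAs 4 of the 12 were called, 1 higher and 3 lower with RBP2 KD1, beside 41.1% of all genes. The largest of these differences were those of CBX7 and RING1. RING1, a core subunit of Polycomb repressive complex 1, stood at 8.08 and 8.41 with RBP2 KD1 and at 9.92 and 10.05 with RBP2 KD2, against 9.01 and 9.14 with scramble. CBX7, a reader subunit of that complex known to hold down CDKN2A, stood at 6.57 and 6.20 with RBP2 KD1 and at 8.53 and 8.44 with RBP2 KD2, against 7.14 and 7.09 with scramble. Both genes were therefore lowest with RBP2 KD1 and highest with RBP2 KD2, which is the order of groups of CDKN2B and the reverse of that of CDKN2A, and neither overlapped between groups. CBX7 was called 1.66-fold lower with RBP2 KD1 (adjusted p = 0.0467) and 2.58-fold higher with RBP2 KD2 (adjusted p = 0.00563), and RING1 1.78-fold lower (adjusted p = 0.0353) and 1.87-fold higher (adjusted p = 0.0138). Whether these differences have a part in those of CDKN2A or CDKN2B was not tested.

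In all, 2 of the 12 were called lower (7.9% of all genes) and 0 higher (3.62%) with RBP2 KD1, and 3 higher (16.7%) and 1 lower (14.4%) with RBP2 KD2. TBX3, a T-box repressor of the locus, was the 1 gene called in the mean of both (log2 fold change 0.56, adjusted p = 0.0353). Its log2 fold change was 0.02 with RBP2 KD1, not called, and 1.10 with RBP2 KD2 (adjusted p = 0.00518). MTAP, which encodes an enzyme of methionine salvage and lies on the far side of CDKN2A from CDKN2B, stood at 8.82 and 8.34 with RBP2 KD1 and at 7.01 and 6.97 with RBP2 KD2, against 8.69 and 8.25 with scramble. Like CDKN2A it was lowest with RBP2 KD2, where it fell 2.80-fold (adjusted p = 0.0109). The antisense transcript CDKN2B-AS1 and the neighbour DMRTA1 stood at the lowest value of the series, 2.24, on all 6 arrays.

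The level of p27 is set largely by protein breakdown, and the genes listed for its turnover and transcription were all tested. Of the 16 genes of CDKN1B turnover and transcription, 0 were called with RBP2 KD1, where 7.9% of all genes were called lower and 3.62% higher. With RBP2 KD2, 2 of 16 were called higher and 3 lower, close to the shares of all genes, 16.7% and 14.4%. CKS1B, the cofactor with which SKP2 recognises p27, stood at 12.63 and 11.56 with RBP2 KD1 and at 6.86 and 6.70 with RBP2 KD2, against 12.72 and 11.87 with scramble. DTL, a substrate receptor of the CUL4 ligase that targets p21, was also counted in this list. It stood at 10.44 and 8.89 with RBP2 KD1 and at 3.55 and 3.97 with RBP2 KD2, against 10.50 and 9.50 with scramble. The RBP2 KD2 arrays of both lay far below all others, and CKS1B fell 45.7-fold (adjusted p = 0.00333). DTL also fell (adjusted p = 0.00434), but its RBP2 KD2 values lie under 4, the mean below which probe sets were set aside as dim, so no fold is given. In the mean of both shRNAs CKS1B and DTL were called lower (2 of 16, 6.92% of all genes). CUL1, the scaffold of the SKP2 ligase, was called higher by 0.48 log2 units (adjusted p = 0.0442), 1 of 16 beside 5.61% of all genes. The log2 fold change of CUL1 was 0.21 with RBP2 KD1, not called, and 0.74 with RBP2 KD2 (adjusted p = 0.0114). Protein levels of the inhibitors were not measured by these arrays.

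Neighbours of CDKN1C in its imprinted region gave few values. Of 8 listed, 3 were tested with 0 calls in the combined contrast of both shRNAs or with RBP2 KD1. PHLDA2, an imprinted gene that limits placental growth, was 1.53-fold lower with RBP2 KD2 (adjusted p = 0.0181), 1 of the 3 beside 14.4% of all genes. SLC67A1, a transporter gene formerly named SLC22A18, stood at 7.65 and 8.37 with RBP2 KD1 and at 9.62 and 10.05 with RBP2 KD2, against 8.46 and 9.07 with scramble. It was lowest with RBP2 KD1 and highest with RBP2 KD2, and the shRNAs differed by -1.82 log2 units (adjusted p = 0.0124). Of 8 other genes with CDK inhibitor names or partners, 0 were called in the mean of both, and with RBP2 KD2 1 was called lower (14.4% of all genes) and 1 higher (16.7%). CDKN3, a phosphatase of CDK2 despite its name, was 5.29-fold lower with RBP2 KD2 (adjusted p = 0.0258) and CIZ1, a partner of p21, 1.40-fold higher (adjusted p = 0.0439).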

How the data were processed

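Expression was measured in 6 H1299 samples, 1 array each. Per the submitters' processing notes the authors used GCRMA, of a version not given in the sources used here, and the deposited values have the range of a log2 scale. GCRMA corrects background by probe sequence, normalizes between arrays and summarises each probe set, and it presses dim probe sets towards a floor, which shortens fold changes there: 37.7% to 38.7% of an array's values stood at the lowest value. All values were taken as deposited, and 0 pairs of arrays were identical. Scanner files were not used here, so depth is known only through the number of arrays.

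Of 54675 probe sets, 41091 carried 1 gene symbol, 1801 several and 11721 none, and 62 were controls; gene identifiers of 41037 matched the RefSeq table. Of several probe sets of a gene the one brightest on average over 6 arrays was used, and genes whose mean reached at least 4 were tested, which left 10526 genes and set aside 9249. Groups were compared with limma 3.58.1 in R 4.3.3 in 1 linear model over all arrays (3 residual and 2.09 prior degrees of freedom), two-sided, with Benjamini-Hochberg adjustment over all tested genes. Other probe sets were tested in a fit over all probe sets. The script was tested on simulated data. The median SE was 0.17 for the contrasts of 2 groups and 0.14 for the mean of both shRNAs against scramble.

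The members and the lists were chosen with earlier results of these data known. All members were named; of each list, up to 4 genes called in the mean of both shRNAs (the 2 largest changes where there were 0), up to 2 called between the shRNAs, and, chosen after their values were seen, some called with 1 shRNA. The sample titles number the replicates, and same-numbered arrays deviated together. Their deviations from the group means correlated at 0.53 (RBP2 KD1 with RBP2 KD2), 0.75 (RBP2 KD1 with scramble) and 0.51 (RBP2 KD2 with scramble). The main fit left the replicate number out, and the fit with the replicate block took same-numbered arrays as pairs. The block fit is given where it changed a call of a member. Alternatives were no filter, a minimum mean of 6, the mean of all probe sets, no cross-hybridising probe sets, quantile normalization, a trended robust variance, the block, the compared groups alone, and each array left out.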

Additional observations from a re-analysis of the deposited data

Results flagged for a closer look

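For 5 inhibitors the effects of the 2 shRNAs under the same contrast with scramble differed by a direct limma test of RBP2 KD1 minus RBP2 KD2. The differences were -1.37 log2 units for CDKN1A (adjusted p = 0.00859), 0.66 for CDKN1B (adjusted p = 0.0138), 0.78 for CDKN2A (adjusted p = 0.00649), -1.28 for CDKN2B (adjusted p = 0.0160) and -1.29 for CDKN2D (adjusted p = 0.00229). In this contrast 41.1% of all tested genes were called. CDKN2A and CDKN2B were each on opposite sides of scramble with the 2 hairpins. In the fit without the replicate block, only the fall of CDKN2A with RBP2 KD2 was called against scramble. CDKN2A with RBP2 KD1 was not called (0.20, adjusted p = 0.319). Nor was CDKN2B with RBP2 KD1 (-0.89, adjusted p = 0.0953) or RBP2 KD2 (0.39, adjusted p = 0.300). The brightest KDM5A probe set was 0.65 log2 units higher with RBP2 KD1 than with RBP2 KD2, the other 3 tested were 0.30, 0.38 and 0.40 higher and not called (adjusted p = 0.167, 0.233 and 0.104), and the part of this in the differences of the inhibitors was not tested.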

How the results depend on the processing

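With 2 arrays a group, the counts of inhibitors called depended on the settings. With no filter on dim probe sets, limma called 0 inhibitors in the mean of both shRNAs (3 at an unadjusted p under 0.05), 1 with RBP2 KD1 and 3 between the shRNAs. A minimum mean of 6 and the mean of all probe sets each left 1 in the mean of both, where CDKN2D no longer entered the test, and the fit on the compared groups alone left 1 with RBP2 KD1. The replicate block gave 3 with RBP2 KD2 and changed calls only by adding members. With each array left out in turn, 0 to 1 were called in the mean of both, 0 to 1 with RBP2 KD1, 0 to 1 with RBP2 KD2 and 2 to 5 between the shRNAs. Over all genes, 1318 were called in the mean of both, 1213 with RBP2 KD1, 3264 with RBP2 KD2 and 4327 between the shRNAs; no filter gave 332, 311, 1470 and 2477, the block 3670, 3117, 5324 and 6071, and RBP2 KD1 with scramble alone 191. Leaving out arrays gave 0 to 457, 0 to 191, 624 to 2928 and 1874 to 3718. Fewer arrays leave fewer degrees of freedom, and with no filter more genes are tested. Among fold changes that were never called, CDKN1C with RBP2 KD1 turned to 0.0064 without RBP2 KD1 replicate 1 and to 0.14 without scramble replicate 2 (range -0.86 to 0.14). CDKN1B with RBP2 KD2 turned to -0.10 without RBP2 KD2 replicate 1 and -0.017 without scramble replicate 1 (range -0.10 to 0.15). CDKN2B in the mean of both turned to 0.082 without scramble replicate 2 (range -0.57 to 0.082); the cause was not tested. Of 170 fold changes of the inhibitors under settings that kept all arrays compared, 157 kept direction and call, 8 lost a call and 5 gained one; of 144 with an array left out, 102 kept both, 37 lost a call and 5 turned.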
